A study of Mus musculus with 6 samples.

Results

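The myosins of the heart were described here through 9 genes: the heavy chains Myh6, Myh7 and Myh7b, the light chains Myl2, Myl3, Myl4 and Myl7, the light chain kinase Mylk3 and the thick filament protein gene Mybphl. They were taken by symbol from the platform annotation, and all 9 had a row of their own among the 23185 genes with 1 symbol. Hearts of FVB mice, an inbred laboratory strain, were profiled on 6 Affymetrix arrays, 3 labelled wild type (replicates 1 to 3) and 3 labelled irisin knockout (replicates 1 to 3). Irisin is a peptide hormone cut from the membrane protein FNDC5, and the knockout was made by injecting zygotes with Cas9 mRNA and 5 guide RNAs. The controls were littermates, and both groups ate chow with 10% fat for 24 weeks. Age at tissue collection, the count of founders behind the line and any pooling of animals were not stated. The labels name the material both as cardiomyocytes and as myocardium, and chamber or dissection is not named. Nothing in them says outright that the arrays of a group come from separate animals, so the spread behind the p-values may be only technical.

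Myosin II is a hexamer of a pair of heavy chains, which hold the motor, and pairs of essential and regulatory light chains, which wrap the lever arm. In the adult mouse heart the fast heavy chain made from Myh6 (alpha) prevails, while Myh7 (beta, slow) belongs to the fetal ventricle and to slow skeletal muscle and is known to rise with haemodynamic load and with low thyroid hormone. Ventricles use the light chains of Myl3 (essential) and Myl2 (regulatory), and atria those of Myl4 and Myl7. MicroRNAs are encoded within heavy chain genes, and the long noncoding RNA Mhrt (Myheart) comes from the locus that Myh6 and Myh7 share.

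Those microRNAs are shown because each of the 3 heavy chain genes hosts 1, and their seeds are alike. The mature sequences of the strands usually studied, from RefSeq tables of GRCm38.p6, are given with the seed, bases 2 to 8, in capitals. Each lies within the span of its heavy chain gene: miR-208a in Myh6, miR-208b in Myh7 and miR-499 in Myh7b.
mmu-miR-208a-3p chr14:54949072-54949093, minus strand: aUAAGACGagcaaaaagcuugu
mmu-miR-208b-3p chr14:54975710-54975731, minus strand: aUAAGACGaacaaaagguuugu
mmu-miR-499-5p chr2:155622893-155622913, plus strand: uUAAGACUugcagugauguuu
The first pair had the same seed and shared 19 of 22 bases, and miR-499-5p matched 6 of their 7 seed bases.

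Promoter windows were shown for the neighbouring heavy chain genes, whose differences between the groups were unlike, and for the atrial light chain pair, whose arrays varied together. The windows run from 250 bases before to 50 bases after an annotated start, and all 9 genes had at least 1. Capitals mark matches, on either strand, to the core of the MCAT site of TEAD factors (CATTCC), the half-site of thyroid hormone receptors (AGGTCA), the TATA box (TATAAA), the forms of the GATA factor site (AGATAA and the like TGATAA), the CArG box of SRF or the MEF2 box.
Myh6 chr14:54966558-54966857, minus strand: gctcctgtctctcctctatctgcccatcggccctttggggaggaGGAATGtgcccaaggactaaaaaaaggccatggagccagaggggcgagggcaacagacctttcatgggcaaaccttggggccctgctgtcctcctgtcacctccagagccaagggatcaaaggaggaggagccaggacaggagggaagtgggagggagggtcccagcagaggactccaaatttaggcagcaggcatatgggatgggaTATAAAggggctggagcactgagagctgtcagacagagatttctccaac
Myh7 chr14:54994577-54994876, minus strand: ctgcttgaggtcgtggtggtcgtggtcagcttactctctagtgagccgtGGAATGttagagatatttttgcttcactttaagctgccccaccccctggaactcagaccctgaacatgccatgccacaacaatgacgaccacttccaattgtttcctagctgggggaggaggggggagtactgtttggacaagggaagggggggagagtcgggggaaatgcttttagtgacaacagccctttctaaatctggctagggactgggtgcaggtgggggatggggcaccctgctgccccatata
Myl4 chr11:104550413-104550712, plus strand: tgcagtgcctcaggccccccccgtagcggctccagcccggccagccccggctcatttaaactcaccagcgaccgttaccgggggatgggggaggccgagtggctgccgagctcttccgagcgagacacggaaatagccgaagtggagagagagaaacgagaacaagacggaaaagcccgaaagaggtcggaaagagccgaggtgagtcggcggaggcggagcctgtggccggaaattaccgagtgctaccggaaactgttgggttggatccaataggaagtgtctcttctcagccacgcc
Myl7 chr11:5898733-5899032, minus strand: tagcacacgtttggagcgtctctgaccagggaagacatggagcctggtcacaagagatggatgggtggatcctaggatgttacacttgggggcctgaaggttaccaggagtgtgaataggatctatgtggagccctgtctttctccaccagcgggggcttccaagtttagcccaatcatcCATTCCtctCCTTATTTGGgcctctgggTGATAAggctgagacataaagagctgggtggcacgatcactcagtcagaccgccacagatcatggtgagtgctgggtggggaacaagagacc
Myh6 held a CATTCC match at position -206 and TATAAA at position 1, counted from 0 at the annotated start. The Myh7 window held a CATTCC match at -201, and the window of its second annotated start held none of these motifs. Myl7 held CATTCC at -70, a CArG box at -61 and TGATAA at -42, whereas the Myl4 window held none. In all 32851 windows of this length CATTCC occurred in 14.7%, AGGTCA in 16.3%, TATAAA in 13.6%, AGATAA in 11.2%, TGATAA in 9.05%, the CArG box in 1.63% and the MEF2 box in 1.86%. The matches are a description of letters, and none of the 4 printed windows held AGGTCA or a MEF2 box. Of the other members, AGGTCA occurred once each in the Myh7b window and in 1 window of Myl2, and Myl3 held a CArG box at -85.

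The deposited values are log2 summaries of 1 probe set per gene, so a step of 1 is a doubling, and which of 2 genes has the higher level cannot be read from them. Array medians lay between 2.13 and 2.28. The labels were checked first through the targeted gene: Fndc5 read 8.42, 8.40 and 7.83 in wild type and 7.68, 5.49 and 5.45 in knockout replicates 1, 2 and 3 (limma adjusted p = 0.0359). Knockout replicate 1 lay near the wild type arrays in Fndc5, and the call was lost without any other single array (0.0617 to 0.133) and with robust variance moderation (0.0635). Which part of the gene was deleted was not stated, so the row may lie outside it. Among markers of cell types, 16 genes of the working cardiomyocyte had an array mean of 10.12 to 10.36 in wild type and 10.30 to 10.40 in knockout, and RNA of other heart cells was present too. Smooth muscle markers averaged 6.54 to 8.06 in wild type and 5.52 to 5.81 in knockout (5 of 9 fell, 2 or 3 without any 1 knockout array), fibroblast markers 6.72 to 7.56 and 6.01 to 6.21 (5 of 9 fell), and endothelial markers 7.32 to 7.37 and 6.58 to 6.87 (3 of 8 fell; 5 after quantile normalization). Of the cardiomyocyte markers 3 rose and 0 fell, but 1 rose without any 1 knockout array, and 1 fell without wild type replicate 1 or knockout replicate 3. After quantile normalization 2 of them rose and 1 fell, and their median went from 0.18 to -0.03. Of 7 macrophage markers 2 fell (1 to 3 with single arrays left out). Of 2 red cell markers 0 passed, although Hbb-bs fell without wild type replicate 1 (limma adjusted p = 0.0182) or with array weights (0.0451). Of 9 conduction markers Cntn2 fell (-1.26, limma adjusted p = 0.0170), a call lost without knockout replicate 1 or 3. In such bulk RNA, fewer cells of a type and less RNA per cell cannot be told apart, and the part of these shifts in the results below was not tested.

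Of the 9 myosin genes, Myh7 rose in the knockout, 0 fell and 8 did not pass limma's test at an adjusted p under 0.05. At an unadjusted p under 0.05, 2 were lower, Myl4 and Myl7. The single call is 11.1% of the genes, against 16.6% of all 23185 genes called in either direction, 10.4% higher and 6.18% lower. All 9 were among the 11592 genes kept without the dimmest 50%. In that fit 34.8% of the genes kept were called, and 2 of the 9. The count of members called was thus not above the background. Groups without overlap were seen for 1 of 9, against 34.1% of all genes, 17.2% higher and 17% lower. The median difference was -0.16, against -0.05 over all genes. Over the 6 arrays Myh6, Myl2, Myl3 and Mylk3 each spanned less than 1 log2 unit, while Myl4, Myl7 and Mybphl spanned 8.32, 8.83 and 6.62.

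**Figure D1:**
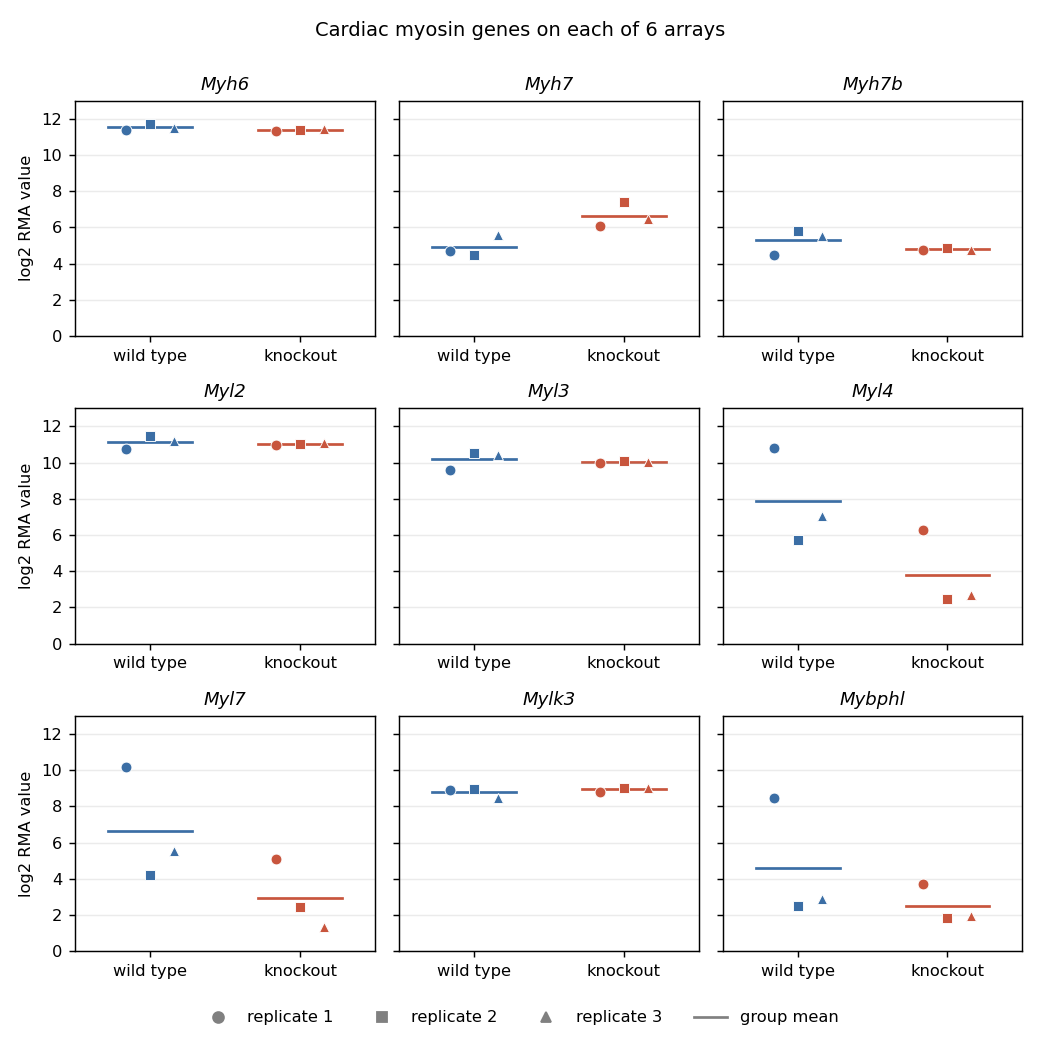
Deposited log2 value (vertical axis) of each of the 9 myosin genes in wild type (blue) and irisin knockout (red) arrays; symbols give the replicate and the bar the group mean. Myh7 is higher on all 3 knockout arrays, while Myl4, Myl7 and Mybphl are highest on wild type replicate 1.

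Myh6, the adult heavy chain, did not pass the test. Wild type replicates 1, 2 and 3 read 11.39, 11.70 and 11.47, and the knockout replicates 11.30, 11.38 and 11.44. The groups overlapped within a narrow band, with means of 11.52 ± 0.16 and 11.37 ± 0.07 (SD, n = 3). The difference, knockout minus wild type, was -0.15 (SE 0.13, limma adjusted p = 0.495), and its 95% interval of -0.44 to 0.14 leaves room for a moderate fall or a small rise.

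Myh7, the slow heavy chain, was higher in the knockout. It read 4.72, 4.45 and 5.57 in wild type and 6.05, 7.40 and 6.46 in knockout replicates 1, 2 and 3. The lowest knockout array lay above the highest wild type array, and knockout replicate 2 was the highest of the 6. The means were 4.91 ± 0.59 and 6.64 ± 0.69 (SD, n = 3), a rise of 1.73 (SE 0.37, 95% interval 0.87 to 2.58), or 3.31-fold, with a limma adjusted p of 0.0155. The call held in all 16 alternative settings, with differences of 1.35 to 2.06 and adjusted p from 0.00855 to 0.0474. Myh6 and Myh7 are close paralogues, and how far each row reads its own transcript alone was not tested.

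The step from Myh6 to Myh7 was also read within each array, where a constant shift of an array cancels. Myh7 minus Myh6 was -6.68, -7.25 and -5.90 in wild type and -5.25, -3.98 and -4.97 in knockout replicates 1, 2 and 3. The groups did not overlap, and the gap narrowed by a mean of 1.88 log2 units. A two-sided exact permutation test gave p = 0.1, the lowest possible with 3 arrays in each group, and 0.2 after Benjamini-Hochberg adjustment over the 3 pairs compared. Such a difference shows unequal change of the pair and not which gene moved.

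Slow skeletal muscle also makes Myh7, so its thin filament genes were read beside it. Tnnt1 read 3.49 to 4.12 in wild type and 3.32 to 3.44 in knockout, and Tnni1 read 1.59 to 2.19 and 1.42 to 1.60. The means of both were lower in the knockout, without passing the test (limma adjusted p = 0.0927 and 0.0977). Of all 15 skeletal muscle markers, 0 rose and 0 fell by limma's adjusted p, and 0 were higher and 6 lower at an unadjusted p under 0.05. Of these 6, Myh4 (0.87 to 1.57) and Mylpf (0.83 to 1.37) read below the median of every array, and Tnni1 near or below it. Such values are not told apart from background. Leaving out 1 wild type array gave up to 2 markers that fell.

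Other genes known to be re-expressed with Myh7 in the loaded heart were less uniform. The natriuretic peptide gene Nppb read 6.19 to 9.78 in wild type and 8.48 to 8.78 in knockout, and the skeletal actin gene Acta1 8.42, 7.13 and 8.98 against 9.08, 9.31 and 8.73. Wild type arrays were spread widely in both genes, and neither passed (limma adjusted p = 0.477 and 0.207). Of the 7 genes of the fetal programme outside the myosins, Xirp2 (0.62, adjusted p = 0.0219), an actin-binding protein of the intercalated disc, rose and the smooth muscle actin gene Acta2 fell (-2.16, 0.00155). Xirp2 lost its call after quantile normalization (0.34, adjusted p = 0.165) and without any 1 of wild type replicate 3 or knockout replicates 1, 2 and 3 (0.0521 to 0.0815). Leaving out wild type replicate 1, or both arrays numbered 1, gave 3 of the 7 genes that rose, and leaving out wild type replicate 2 gave 2 that fell.

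Myh7b, an ancient heavy chain gene that hosts miR-499, did not pass but varied among wild type arrays. It read 4.50, 5.80 and 5.53 in wild type and 4.77, 4.85 and 4.75 in knockout replicates 1, 2 and 3. The knockout arrays lay within 0.10 of each other, and wild type replicate 1 was below all of them while the other wild type arrays were above. The difference was -0.48 (SE 0.29, 95% interval -1.15 to 0.19, limma adjusted p = 0.327). With wild type replicate 1 left out it was -0.87 with an adjusted p of 0.00489, and without both arrays numbered 1 it was -0.86 with an adjusted p of 0.0226; over 16 alternatives the adjusted p ran from 0.00489 to 0.666.

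Among the noncoding RNAs of these loci, Mhrt and the Mir208a row fell. Mhrt, which in the adult heart is known to restrain the chromatin remodeller BRG1, read 7.82, 8.44 and 8.58 in wild type and 7.63, 6.95 and 7.37 in knockout replicates 1, 2 and 3. The groups did not overlap, although wild type replicate 1 and knockout replicate 1 lay close together. Its difference was -0.96 (SE 0.24, limma adjusted p = 0.0254). The call was lost without wild type replicate 2 or 3 (adjusted p = 0.0644 and 0.0803) or knockout replicate 2 or 3 (0.0967 and 0.0717).

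Mir208a, within Myh6, read 2.31, 2.46 and 2.53 in wild type and 1.38, 1.25 and 1.69 in knockout replicates 1, 2 and 3. The groups were apart, but the knockout values lay below the median of every array. The wild type values lay only a little above the array medians of 2.13 to 2.28. The difference was -0.99 (SE 0.14, limma adjusted p = 0.00305), while Myh6 itself differed by -0.15. Mir208b read 0.90 to 1.04 in wild type and 0.90 to 0.98 in knockout, and Mir499 read 1.04 to 1.16 and 0.79 to 1.22. Both were low on all arrays, with differences of -0.05 and -0.14 (limma adjusted p = 0.800 and 0.574), and that of Mir208b turned positive under either scaling (0.01 after quantile normalization, 0.06 after centring). Whether such rows read the precursor or the mature strand printed above was not stated. The span of Mhrt overlaps that of Myh7 in RefSeq, and which strand or part of either gene the probes read was not stated.

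**Figure D2:**
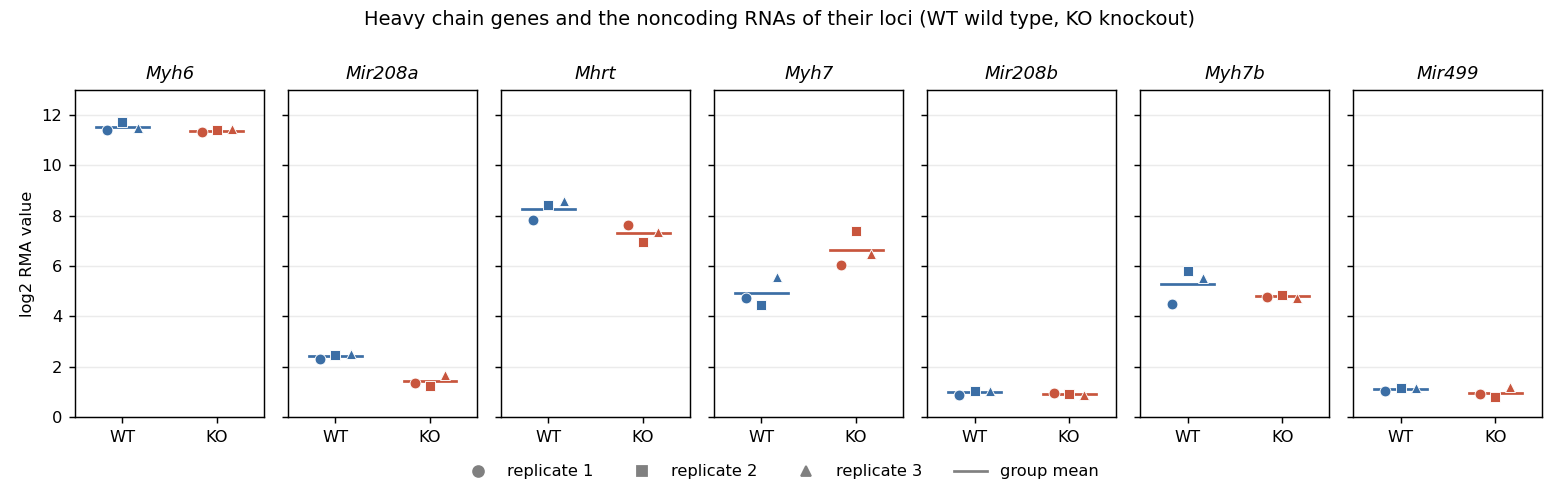
Log2 value (vertical axis) on each array of the 3 heavy chain genes and of the noncoding RNAs that lie in or beside them, wild type in blue and irisin knockout in red; bars are group means. Myh7 is higher and Mhrt and Mir208a lower on the knockout arrays, with no overlap, while Myh6 overlaps.

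The ventricular light chains did not pass the test. Myl2, the ventricular regulatory chain, read 10.76, 11.46 and 11.20 in wild type and 11.00, 11.03 and 11.10 in knockout replicates 1, 2 and 3. The knockout arrays lay inside the wild type range, whose low end was replicate 1. Its difference was -0.10 (SE 0.18, 95% interval -0.50 to 0.31, limma adjusted p = 0.775), and it turned to 0.01 when each array was centred on its median. That centring shifted the whole table: the median over all genes went from -0.05 to 0.07, and the share of called genes that were higher from 62.8% to 76.4%.

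Myl3, the ventricular essential chain, read 9.61, 10.55 and 10.42 in wild type and 9.98, 10.09 and 10.04 in knockout replicates 1, 2 and 3. Wild type replicate 1 was again the lowest of the 6 arrays. The difference was -0.16 (SE 0.23, 95% interval -0.68 to 0.36, limma adjusted p = 0.710). It was -0.45 with an adjusted p of 0.0467 when wild type replicate 1 was left out, within a range of 0.0467 to 0.970 over 16 alternatives.

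The atrial light chains were lower on average in the knockout, but the arrays within each group lay far apart, and neither passed. For Myl4, the atrial essential chain, wild type replicates 1, 2 and 3 read 10.80, 5.72 and 7.05, and the knockout replicates 6.27, 2.49 and 2.68. The groups overlapped, since knockout replicate 1 lay above wild type replicate 2. The means were 7.86 ± 2.64 and 3.81 ± 2.13 (SD, n = 3), a difference of -4.05 (SE 1.35, 95% interval -7.14 to -0.96, limma adjusted p = 0.0792).

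Whether Myl4 passed depended on which arrays and genes were kept and on the model. Among other settings, it passed without wild type replicate 2 (-5.12, adjusted p = 0.0381), without knockout replicate 1 (-5.28, 0.0446), without both arrays numbered 1 (-3.81, 0.00504) and without the dimmest 50% of genes (0.0442). The difference was -2.58 and did not pass without wild type replicate 1 (0.139), and over 16 alternatives the adjusted p ran from 0.000566 to 0.243.

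Myl7, the atrial regulatory chain, read 10.16, 4.22 and 5.55 in wild type and 5.09, 2.44 and 1.33 in knockout replicates 1, 2 and 3. Wild type replicate 1 was 61.4-fold above wild type replicate 2, and knockout replicate 1 was above wild type replicate 2, so the groups overlapped. The means were 6.65 ± 3.12 and 2.95 ± 1.93 (SD, n = 3), a difference of -3.70 (SE 1.46, 95% interval -7.04 to -0.36, limma adjusted p = 0.132). The difference was -1.94 when wild type replicate 1 was left out (adjusted p = 0.218). Without both arrays numbered 1 it was -3.01 and passed (0.0152), within a range of 0.00632 to 0.339 over 16 alternatives.

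Mybphl, a relative of myosin binding protein C found in atria and the conduction system, read 8.47, 2.52 and 2.87 in wild type and 3.69, 1.84 and 1.95 in knockout replicates 1, 2 and 3. Wild type replicate 1 stood far above the other 5 arrays, most of which lay near or below the array medians, so no fold is given. The difference was -2.12 (SE 1.39, 95% interval -5.31 to 1.06, limma adjusted p = 0.368). It was -0.20 when wild type replicate 1 was left out (adjusted p = 0.842). Without both arrays numbered 1 it was -0.80 and passed (0.0344), the lowest of its adjusted p values over 16 alternatives, which reached 0.842.

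**Figure D3:**
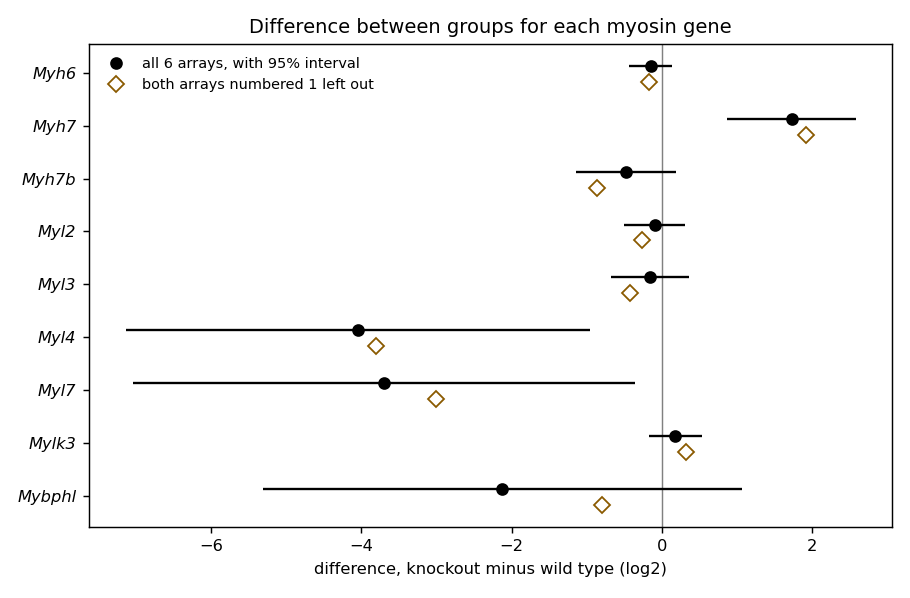
Difference between group means, knockout minus wild type, in log2 units (horizontal axis) for each of the 9 myosin genes: filled points use all 6 arrays, with limma's 95% interval, and open diamonds leave out both arrays numbered 1. The intervals of Myl4, Myl7 and Mybphl are several times wider than those of Myh6, Myl2, Myl3 and Mylk3, and Mybphl moves from -2.12 to -0.80 without the arrays numbered 1.

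Against all 23185 genes, the spread of these 3 atrial genes within a genotype was among the widest on the arrays. Ranked by the range over the wild type arrays, Mybphl stood at 2, Myl7 at 3 and Myl4 at 8, and by the range over the knockout arrays Myl4 stood at 3, Myl7 at 4 and Mybphl at 9. Sln, which encodes sarcolipin, the atrial inhibitor of the calcium pump, stood at 1 in wild type and 2 in knockout. The ventricular genes ranked far lower in wild type, Myl3 at 1258 and Myl2 at 3007, with Myh6 at 12867. In the knockout, Myh7 had the highest rank of the other 6 myosin genes, at 45.

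Atrial markers outside the myosins showed which arrays carried this signal. Sln read 10.80, 3.83 and 5.54 in wild type and 6.98, 1.39 and 1.36 in knockout replicates 1, 2 and 3. Of 12 atrial markers, 10 were highest on wild type replicate 1 of all 6 arrays, and 7 were highest on knockout replicate 1 of the knockout arrays. Wild type replicate 1 was above the mean of the other wild type arrays by 3.69 in Nppa (atrial natriuretic peptide), 3.49 in Bmp10, 3.54 in Stard10, 2.99 in Kcnj3 and 2.08 in Gja5. Knockout replicate 1 minus the mean of the other knockout arrays was 5.61 in Sln, 1.196 in Dkk3 and 1.06 in Nppa. It was smaller in Bmp10 (0.45), Stard10 (0.40), Gja5 (0.16), Kcnj3 (0.13) and Nr2f2 (0.03). In Kcna5, Kcnj5, Nr2f1 and Tbx18 it was negative (-0.38, -0.24, -0.45 and -0.06). The array mean over the 12 markers was 6.66 on wild type replicate 1, 4.21 to 4.68 on the other wild type arrays and 4.25 to 4.96 on the knockout arrays.

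None of the 12 atrial markers passed limma's test between the groups (median -0.45; 1 at an unadjusted p under 0.05), and of 10 ventricular markers 5 did. Dkk3 had the lowest adjusted p of the atrial list (-2.04, limma adjusted p = 0.0872), and Tbx18 differed by 0.36 (0.181). Kcna5 differed by -0.37, Kcnj5 by 0.72, Nr2f1 by -0.23 and Nr2f2 by -0.25, with adjusted p of 0.213 to 0.582. Ventricular markers outside the myosins rose for 5 of 10 and fell for 0, with a median of 0.92: the channel subunit gene Kcnip2 by 2.08, the transcription factor genes Irx3, Irx4 and Irx5 by 1.41, 1.06 and 1.18, and the cofactor gene Lbh by 1.19. Their array mean was 5.96 to 6.59 in wild type, lowest on replicate 1, and 7.04 to 7.20 in knockout. Without any 1 knockout array 4 of the 10 rose, and Irx4 was not among them. Without wild type replicate 2, 7 rose. The part of atrial content in the differences of light chains and of ventricular markers was not tested. With both arrays numbered 1 left out, the ventricular count was again 5 of 10. In that fit the potassium channel genes Kcnj3 and Kcnj5 were called higher (1.75 and 1.41, limma adjusted p = 0.0156 and 0.0125) and Sln lower (-3.31, 0.0112). Leaving out wild type replicate 1 alone gave 3 atrial markers that rose, these channel genes and Stard10; without wild type replicate 2 Dkk3 fell (-2.91, 0.00475) and without wild type replicate 3 Gja5 fell (-1.62, 0.0491).

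More of the 9 genes were called when both arrays numbered 1 were left out. In that fit Myh7 rose, and Myh7b, Myl4, Myl7 and Mybphl fell, 5 of 9 or 55.6%, against 11.7% of all genes called, 7.63% higher and 4.05% lower. With wild type replicate 1 alone left out, 3 of 9 were called (Myh7 higher, Myh7b and Myl3 lower) against 18% of all genes, 11.1% higher and 6.87% lower. With the remaining 2 arrays per group the test rests on few degrees of freedom, and the setting was chosen with the uneven atrial signal known.

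**Figure D4:**
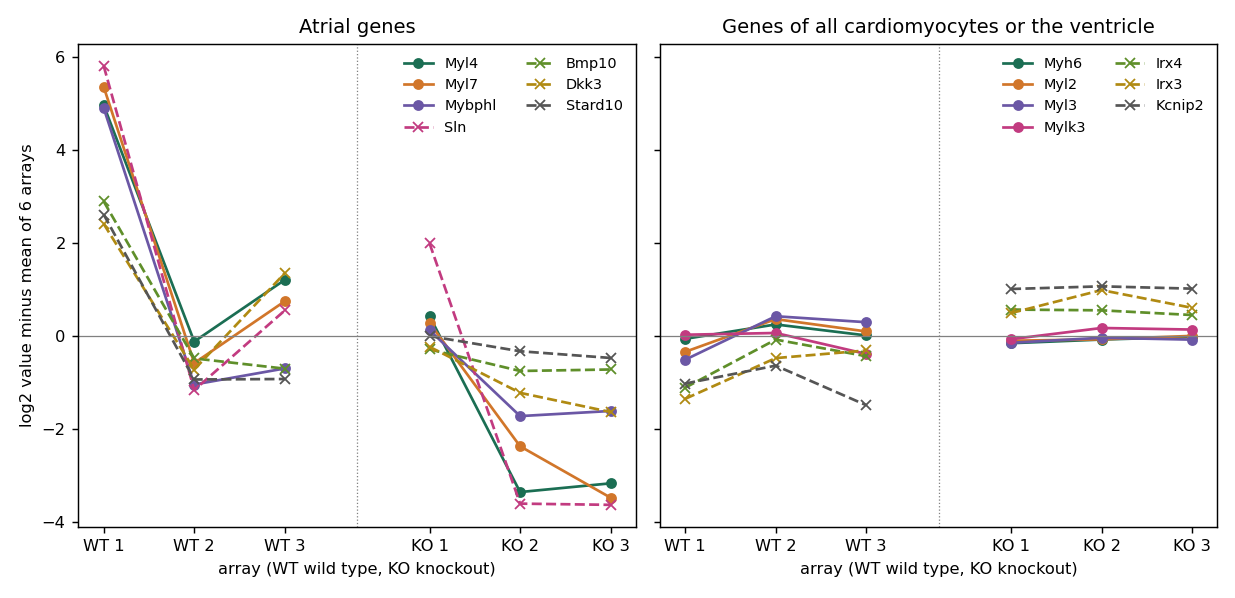
Log2 value minus the gene's own mean over 6 arrays (vertical axis) for each array, myosin genes as solid lines with dots and other markers as dashed lines with crosses; lines join values of 1 gene and imply no order. The atrial genes drawn on the left peak on wild type replicate 1 and, among the knockout arrays, on knockout replicate 1. The myosin genes on the right span far less than those on the left. The markers drawn were picked after their values were seen. Kcna5, Kcnj5, Nr2f1, Nr2f2 and Tbx18 of the atrial list, not drawn, are not highest on knockout replicate 1 among the knockout arrays. The ventricular markers drawn are among those that rose, and Hey2 (-0.44), Fhl2 (0.06) and Ckm, not drawn, did not pass.

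The atrial and ventricular light chains were also compared within arrays. Myl4 minus Myl3 was 1.19, -4.82 and -3.37 in wild type and -3.71, -7.60 and -7.37 in knockout replicates 1, 2 and 3. Myl7 minus Myl2 was -0.59, -7.24 and -5.64 against -5.91, -8.59 and -9.77. In both pairs knockout replicate 1 lay within the wild type range and the other knockout arrays below it. The mean differences were -3.89 and -3.60, each with a two-sided exact permutation p of 0.2, where 0.1 is the smallest possible.

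By likeness of profile, the light chains of the atria were each other's nearest gene. Likeness was the root mean square distance between profiles over the 6 arrays, each centred on its own mean, among the 11591 other genes with a mean level above the median of all. Myl4 and Myl7 lay 0.53 apart, followed by Sln (0.91 from Myl4 and 0.92 from Myl7), and then by the hepcidin gene Hamp for Myl4 (0.97) and Mybphl for Myl7 (1.04). Mybphl was nearest to Fgf12 (0.50), Adamts8 (0.72) and Tmem163 (0.78). Fgf12 read 7.79 on wild type replicate 1 and 2.30 to 3.34 on the other 5 arrays. These genes share the same 6 arrays, and each was highest on wild type replicate 1. Myl4, Myl7, Sln and Hamp were also lowest on knockout replicates 2 and 3.

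The profiles nearest to the other heavy chains were closer in distance, and those genes span less over the arrays. Myh7 was nearest to Pisd, the mitochondrial phosphatidylserine decarboxylase gene (0.27), Gdpgp1 (0.37) and Plpp7 (0.37). Pisd read 2.75, 2.00 and 3.42 in wild type and 3.87, 4.59 and 4.06 in knockout. Like Myh7, it was highest on knockout replicate 2 and lowest on wild type replicate 2. Pisd was picked for such likeness, so this is not a separate result. Myh7b was nearest to Pwwp2a and Pcdhgb7 (both 0.12) and Fv1 (0.13). Myh6, Myl2, Myl3 and Mylk3 spanned less than 1 log2 unit over the 6 arrays and were given no neighbours.

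Mylk3, the cardiac kinase that phosphorylates the regulatory chain of Myl2, did not pass. It read 8.90, 8.94 and 8.49 in wild type and 8.80, 9.04 and 9.01 in knockout replicates 1, 2 and 3. The arrays overlapped, and the lowest was wild type replicate 3. The difference was 0.18 (SE 0.15, 95% interval -0.17 to 0.53, limma adjusted p = 0.505), and it turned to -0.07 after quantile normalization. Mylk4, a related kinase of heart muscle, differed by 0.12 (adjusted p = 0.642).

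Around this kinase, of 14 genes of light chain kinases, calmodulin and myosin phosphatase, 1 rose, 4 fell and 9 did not pass, with a median of -0.11 against -0.05 over all genes. The smooth muscle and nonmuscle kinase gene Mylk had a log2 difference of -1.04 (limma adjusted p = 0.0225), and the phosphatase targeting subunits Ppp1r12c and Ppp1r12a had differences of -0.94 (0.00411) and -0.84 (0.0112). The catalytic subunit gene Ppp1cb rose by 0.63 (0.0161) but did not pass after quantile normalization (0.37, 0.0757) or without knockout replicate 1 or 2 (0.0677 and 0.0727), nor without both arrays numbered 1 (0.0833). Mylk lost its call without knockout replicate 1, 2 or 3 (0.0682, 0.0846 and 0.0724) and Ppp1r12a without knockout replicate 1 (0.0510) or both arrays numbered 1 (0.0549). Genes that fell numbered 1 without knockout replicate 1 and 2 without replicate 2, without replicate 3 or without both arrays numbered 1.

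Of 8 other heavy chains of sarcomeric and smooth muscle 1 fell, and of 3 nonmuscle heavy chains 2 fell. The smooth muscle heavy chain gene Myh11 read 7.51, 6.35 and 8.98 in wild type and 5.35, 4.76 and 5.69 in knockout replicates 1, 2 and 3, a fall of 5.10-fold (log2 SE 0.57, limma adjusted p = 0.0239). The call was lost without any 1 knockout array (0.0735, 0.0985 and 0.0521 without replicates 1, 2 and 3) and without both arrays numbered 1 (0.0986). The other 7 heavy chains of that list, those of skeletal and extraocular muscle, read between 0.60 and 1.57 and did not pass. The nonmuscle heavy chain genes Myh9 and Myh10 fell, by 2.10-fold and 1.90-fold (adjusted p = 0.00443 and 0.0183), and Myh14 differed by 0.02 (0.952). Myh10 lost its call without wild type replicate 3 (0.0588), knockout replicate 1 (0.0750) or 3 (0.0667), or both arrays numbered 1 (0.126).

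Of 7 other light chains measured, 2 rose, 1 fell and 4 did not pass. Myl9, the regulatory chain of smooth muscle, read 8.09, 7.05 and 8.20 in wild type and 5.17, 4.82 and 5.14 in knockout replicates 1, 2 and 3. Its fall of 6.66-fold (log2 SE 0.28, limma adjusted p = 0.000808) held in all 16 alternatives. Myl12a, a nonmuscle regulatory chain, read 3.35, 2.13 and 1.72 against 4.79, 4.20 and 3.83 (1.88, adjusted p = 0.0147), and the essential chain gene Myl6b rose by 0.70 (0.0161). In wild type Myl6b read 2.46, 1.92 and 2.15. These values, and 2.13 and 1.72 of Myl12a, lay near or below the array medians of 2.13 to 2.28. They are not told apart from background. Myl12b, a close paralogue of Myl12a, differed by -0.02 (0.951), and how far the rows of that pair are separate was not tested. Myl12a lost its call without knockout replicate 1 or 2 (0.0617 and 0.0551) and Myl6b without knockout replicate 2 or 3 (0.0672 and 0.0625).

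Thick filament partners were read next. Of 5 myosin binding proteins, Mybphl included, 0 passed, also at an unadjusted p under 0.05; Mybpc3, the cardiac form, read 9.55, 9.93 and 9.71 in wild type and 9.59, 10.06 and 10.01 in knockout (0.16, limma adjusted p = 0.597). The lowest p among the 5 was that of Mybpc2, the fast skeletal form (0.82, 0.260). Of 9 genes of myosin folding and turnover, 2 rose and 0 fell, with a median of 0.26. Smyd1, a methyltransferase that takes part in thick filament assembly, rose by 0.89 (SE 0.16, adjusted p = 0.00705), and Fbxo32 (atrogin-1), a muscle ubiquitin ligase, by 0.86 (0.00454). The chaperone gene Unc45b, which folds the myosin motor, differed by 0.10 (0.791), and Trim63 (MuRF1), which targets heavy chains, by 0.21 (0.508).

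**Figure D5:**
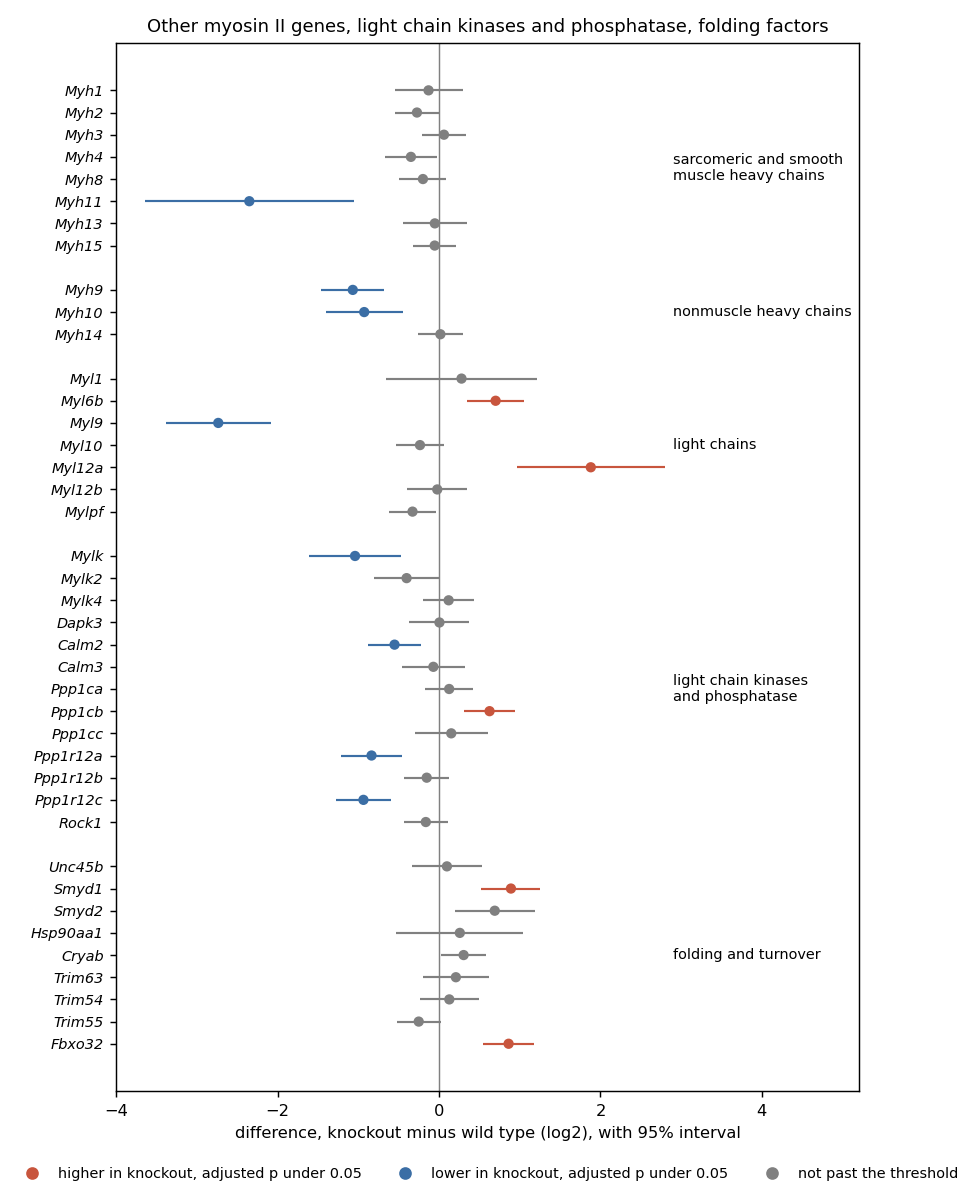
Difference, knockout minus wild type, in log2 units (horizontal axis) with limma's 95% interval for the other myosin II genes, light chain kinase and phosphatase genes and folding genes; red is higher and blue lower at an adjusted p under 0.05, and grey did not pass. Myh11 and Myl9 have the largest falls of those drawn, at -2.35 and -2.74, and Myl12a the largest rise, at 1.88.

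Among 22 transcriptional regulators known to act on cardiac myosin genes, 6 rose, 0 fell and 16 did not pass, with a median of 0.17. Mef2a and Mef2d, MADS-box factors of muscle genes, rose by 0.77 and 0.86 (limma adjusted p = 0.00360 and 0.00585), the retinoid receptor gene Rxra, a partner of thyroid receptors, by 0.75 (0.00585), and the thyroid hormone receptor gene Thrb by 0.62 (0.0110). Thra, the main thyroid hormone receptor gene of heart, differed by -0.13 (0.587), and Tead1, whose product binds MCAT sites, by 0.45 (0.172). The median turned to -0.02 after quantile normalization, and 3 genes rose without knockout replicate 1 or without both arrays numbered 1. Thrb lost its call in those last settings (0.0513 and 0.0851). Of 5 genes of thyroid hormone entry and conversion, the transporter gene Slc16a10 rose by 1.03 (SE 0.12, 0.00147), and the deiodinase genes Dio1, Dio2 and Dio3 read 0.96 to 2.14 on all arrays without passing.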

How the data were processed

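RNA extracted with TRIzol was labelled with biotin by the WT Plus kit, per the labels' protocols. The deposited log2 values are RMA summaries by the authors; the submitters' processing notes list affy (1.61.0) and R (3.6.0). The log2 scale was inferred from their range. Neither the probe set definition nor a genome build was stated.

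Genes were named through the platform annotation: 23185 of 25206 rows had 1 symbol, 0 several and 2021 none. All named genes were tested with limma 3.58.1 in R 4.3.3 (lmFit, eBayes, genotype as only term, two-sided, Benjamini-Hochberg over 23185 genes, threshold 0.05). The code was tested on simulated data. Within-array differences of 3 gene pairs had exact permutation tests. Alternatives were quantile normalization, centring, dropping the dimmest 30% or 50% of genes, all rows, trended or robust moderation, weights per array, a replicate block, each array left out, and both arrays numbered 1 left out. Named are the 9 genes, and per list those past the threshold (up to 4 by p, else 2), all atrial markers and all noncoding RNAs of the loci, and 3 nearest profiles; a few other list members (Nppb, Acta1, Tnnt1, Tnni1, Irx4, Myh14, Myl12b, Mylk4, Mybpc3, Unc45b, Trim63, Thra, Tead1, the deiodinases) were picked after their values were seen. The members and lists were chosen with earlier results of these data known. Sequences are RefSeq's. Some listed genes are not reported here. Plots used matplotlib 3.10.9 in Python 3.11.15.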

Additional observations from a re-analysis of the deposited data

How the results depend on the processing

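The 9 differences were recomputed in 16 alternatives each. Myh7 passed in all 16 and Myh6 in 0. Of the 9 genes, 1 was called with all arrays. Without the dimmest 50% of genes 2 were called, 1 of them lower, against 34.8% of the 11592 genes kept. With the replicate number as a block 3 were called, 2 of them lower, against 15.4% of all genes. Without both arrays numbered 1 there were 5, with 4 lower, against 11.7%. Without single arrays 1 to 3 were called, 0 to 2 of them lower, where 9.07% to 18% of all genes were called. The block added Myl4 (adjusted p = 0.000566) and Myl7 (0.00632), and of the markers Sln (0.00138), Dkk3 (0.0223) and Hbb-bs (0.0169), all lower. Correlations over genes of the deviations of same-numbered arrays were weak and positive (0.0896, 0.0478 and 0.0700, none over 0.1). Between arrays of unlike number they ran from -0.119 to 0.0548, and wild type replicate 2 was closer to knockout replicate 3. Such weak values cannot show whether the numbers pair the samples, so the block was kept as an alternative only.

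Some differences turned sign. After centring Myl2 was 0.014 and Mir208b 0.057, and after quantile normalization Mylk3 was -0.073 and Mir208b 0.0077. Over single arrays left out, Myl2 ran from -0.29 to 0.064 and Myl3 from -0.45 to 0.019, each above 0 without wild type replicate 2, as was the red cell marker Alas2 (-1.38 to 0.023). Without wild type replicate 1, Nppa, Bmp10 and Stard10 turned positive (ranges -1.97 to 0.53, -1.79 to 0.0050 and -1.11 to 0.66), and without both arrays numbered 1 Nppa was 0.17, Stard10 0.53 and Nr2f1 0.058. The cause was not tested.

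Over single arrays left out, called genes of the other lists numbered 26 to 54 and all called genes 2104 to 4163, 1403 to 2570 of them higher and 701 to 1593 lower; without both arrays numbered 1, 938 were lower. The within-array differences kept their sign in all 9 alternatives each. With 3 arrays per group, no detection calls and 1 probe set per gene, values near the array median are not told apart from background.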
